A study of Mus musculus with 24 samples.

Results

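The levels of 10 genes of the primary cilium and of cystic liver and kidney disease were followed in mouse liver organoids: Pkd1, Pkd2, Pkhd1, Ift88, Arl13b, Kif3a, Cys1, Bicc1, Foxj1 and Rfx3. They were taken by gene symbol, and all 10 were found in each table of expression values, among 31053 genes in the hepatocyte table, 25876 in the cholangiocyte table and 20729 in the Smart-Seq table. The values are FPKM, the fragments of a gene scaled to the length of the gene and the size of the library, so that levels of different genes can be set side by side within a table.

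The primary cilium is a single, non-motile antenna of the cell surface, and in the liver it is carried by cholangiocytes, the cells that line the bile ducts, whereas hepatocytes lack it. It is built and kept up by intraflagellar transport, in which motors carry cargo along the microtubules of the axoneme, and it holds the polycystins, which sense conditions in the bile. Loss of the polycystins or of fibrocystin gives fluid-filled cysts of the bile ducts and of the kidney.

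The cells came from livers of wild-type male BALB/c mice aged 6 to 8 weeks. Hepatocytes were purified on Percoll and by removal of EpCAM-positive cells (the group Pri-Hep) and were grown in Matrigel as hepatocyte organoids (Hep-Orgs) in a hepatocyte medium with the Notch inhibitor DAPT and dexamethasone, up to passage 1, 5 or 10 (P1, P5, P10). EpCAM-positive cells were grown as cholangiocyte organoids (Cho-Orgs) in a medium without DAPT or dexamethasone. It held forskolin, Wnt3a and Noggin, and Cho-Orgs were taken at P0, P5 and P10. Each of these 7 groups holds 3 poly(A) libraries, and 3 further Smart-Seq libraries hold Hep-Orgs picked at P0 for a grape-like, an intermediate or a round-like shape, 1 library each. The study describes these shapes in its first hepatocyte medium, before DAPT and dexamethasone were added. The study describes its numbered libraries both as 3 mice and as 3 cultures, so the p-values measure the spread between these libraries, which may be technical.

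Several libraries went against their labels or held RNA of markers of other cell types. Epcam, by which Pri-Hep cells had been depleted, stood between 261 and 281 FPKM in the 12 libraries of the hepatocyte table, the biliary keratin Krt19 between 229 and 247, and Alb (serum albumin) between 106 and 128, and the 3 libraries labelled Pri-Hep overlapped with Hep-Orgs in each of these genes. The sum of 10 hepatocyte markers lay between 609 and 671 FPKM there, and that of 10 cholangiocyte markers between 4273 and 4519. The Cho-Orgs libraries at P0 held Alb at 4526 to 5254 FPKM and a sum of 10 hepatocyte markers of 7238 to 8162 FPKM, against 206 to 253 at P5 and 77.8 to 83.5 at P10, where Cps1, Cyp3a11 and Cyp2e1 were listed at 0 in each library. Of 10 cholangiocyte markers, all were at 1 FPKM or more in each Cho-Orgs library, but from P0 to P10 limma called 4 higher (Krt7 by 1.89, Tspan8 by 0.47, Krt19 by 0.43 and Slc4a2 by 0.23 on the log2 scale) and 4 lower (Cftr by -4.02, Spp1 by -2.78, Epcam by -0.79 and Sox9 by -0.60). Summed stellate and mesenchymal markers went from 60.8 to 75.7 FPKM at P0 to between 0.174 and 0.239 at P10. Only Reln of these 8 markers reached 1 FPKM in at least 3 libraries, and it fell by 6.01 on the log2 scale. Macrophage markers summed to 43.4 to 48.9 FPKM at P0, 72.1 to 77.3 at P5 and 10.1 to 10.5 at P10. Of these 8, Cd68 and Lyz2 alone were tested, and from P0 to P5 Cd68 rose by 1.27 while Lyz2 fell by 3.80. The sum of endothelial markers stayed at or under 16.6 FPKM. Of these 8, Tek alone was tested, and it rose by 2.96 from P0 to P5 and fell by 2.89 from P5 to P10. The proliferation marker Mki67 fell over the same passages, from 37.3 ± 7.47 FPKM (SD, n = 3) at P0 to 15.8 ± 0.582 at P5 and 1.27 ± 0.0318 at P10. Depth, recovered from the values, was 14068906 to 27160365 fragments for Pri-Hep and Hep-Orgs, and was estimated at 37500000 to 39950000 for Cho-Orgs and 40050000 to 40350000 for Smart-Seq.

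All 10 are protein-coding genes, with the coordinates of the mm10 build that the hepatocyte table lists and that GENCODE M21 gives as well. The polycystins are Pkd1 (ENSMUSG00000032855, chr17:24549834-24596508, plus strand) and Pkd2 (ENSMUSG00000034462, chr5:104459450-104505819, plus strand), and fibrocystin is Pkhd1 (ENSMUSG00000043760, chr1:20057779-20618064, minus strand). Cys1 (ENSMUSG00000062563) lies at chr12:24665833-24681813 and Bicc1 (ENSMUSG00000014329) at chr10:70922832-71159700, both on the minus strand. The genes of cilium assembly are Ift88 (ENSMUSG00000040040, chr14:57424062-57517936, plus strand), Kif3a (ENSMUSG00000018395, chr11:53567379-53601967, plus strand) and Arl13b (ENSMUSG00000022911, chr16:62793685-62847040, minus strand). The transcription factors are Foxj1 (ENSMUSG00000034227, chr11:116330704-116335399, minus strand) and Rfx3 (ENSMUSG00000040929, chr19:27761721-28011166, minus strand).

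Of the exon bases of Pkd1, 3.98% lie over exons of Tsc2 on the opposite strand, which averaged 10.8 FPKM in the Cho-Orgs, and 4.69% of those of Bicc1 lie over the antisense gene 4930533K18Rik, at 0.0357 FPKM. The study describes the reads of the bulk libraries as specific for the strand, but whether counting used it is not given in the sources used here, so that reads of these stretches cannot be told apart between the partners.

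RefSeq promoters, which run from 250 bases before to 50 after the start site in GRCm38.p6, were given for 8 of the 10 genes, and not for Bicc1 and Foxj1. RFX factors bind pairs of short half-sites in the promoters of cilium genes, so the letters GTTGCC were searched on both strands. They were in the promoters of Ift88, Kif3a, Arl13b and Rfx3, that is in 4 of 8, and in 12.5% of 32851 promoters of the same length. The match lay at position 22 from the start site on the reverse strand in Ift88, at -98 in Kif3a, at -181 in Arl13b and at 32 in Rfx3. The half-site of HNF1 factors, GTTAAT, was found in Pkhd1 at -79, and in 7.10% of all promoters, and the FOX core GTAAACA in none of the 8, and in 3.65% of all promoters. A match of letters is no evidence of binding. The stretches around the matches, with the matching letters in capitals, are shown because these 5 promoters held a match, to the RFX half-site in the first 4 and to the HNF1 half-site in Pkhd1, at chr14:57424080-57424109 (plus strand) for Ift88, chr11:53567244-53567303 (plus) for Kif3a, chr16:62847189-62847248 (minus) for Arl13b, chr19:28011118-28011147 (minus) for Rfx3 and chr1:20618104-20618163 (minus) for Pkhd1.
Ift88: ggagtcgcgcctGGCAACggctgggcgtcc
Kif3a: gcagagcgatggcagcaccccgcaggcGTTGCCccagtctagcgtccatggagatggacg
Arl13b: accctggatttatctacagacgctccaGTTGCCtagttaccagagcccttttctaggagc
Rfx3: gttatagcaaccGTTGCCttgtgaatcaag
Pkhd1: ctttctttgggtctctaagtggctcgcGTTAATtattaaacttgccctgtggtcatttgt

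In Cho-Orgs, most of these genes changed between passages, and they did not move as a group. From P0 to P10, Foxj1, Kif3a, Pkd1, Pkd2, Arl13b and Ift88 rose, Cys1 and Bicc1 fell, and Pkhd1 did not pass the test. Over the first step, from P0 to P5, Pkd2, Cys1 and Bicc1 fell while Pkhd1, Kif3a and Foxj1 rose. Over the second, from P5 to P10, 7 genes rose, Pkd2 and Bicc1 among them, and Pkhd1 fell. The rises of Pkhd1 and Kif3a over the first step, and of Arl13b and Foxj1 over the second, missed the threshold in several alternative fits given below. Rfx3 stayed under 1 FPKM in all 9 libraries and was not among the 11593 genes tested, for which at least 1 FPKM was required in at least 3 libraries. Fewer cells of a type and less RNA per cell cannot be told apart in these bulk libraries, and the part of the shifts in hepatocyte, cholangiocyte, stellate and proliferation markers in these changes was not tested.

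These counts stand against a table in which much changed. Between P5 and P0, limma called 6 of 9 members tested (3 higher, 3 lower) at an adjusted p under 0.05, against 56.6% of all genes tested, 34% higher and 22.6% lower. Between P10 and P5 it called 8 of 9 (7 higher, 1 lower), against 61.5% of all genes, 31% higher and 30.5% lower. Between P10 and P0 it called 8 of 9 (6 higher, 2 lower), against 72.3% of all genes, 41% higher and 31.3% lower. Of all calls between P5 and P0, 60% were higher as deposited, 47.1% with median-ratio size factors and 65.3% after rescaling to TPM, and the members called in that comparison kept their direction under each. Their calls did not all hold. With median-ratio size factors, Pkhd1 (limma adjusted p = 0.078) and Kif3a (0.32) missed the threshold, while Ift88 passed it as lower (0.039).

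**Figure D1:**
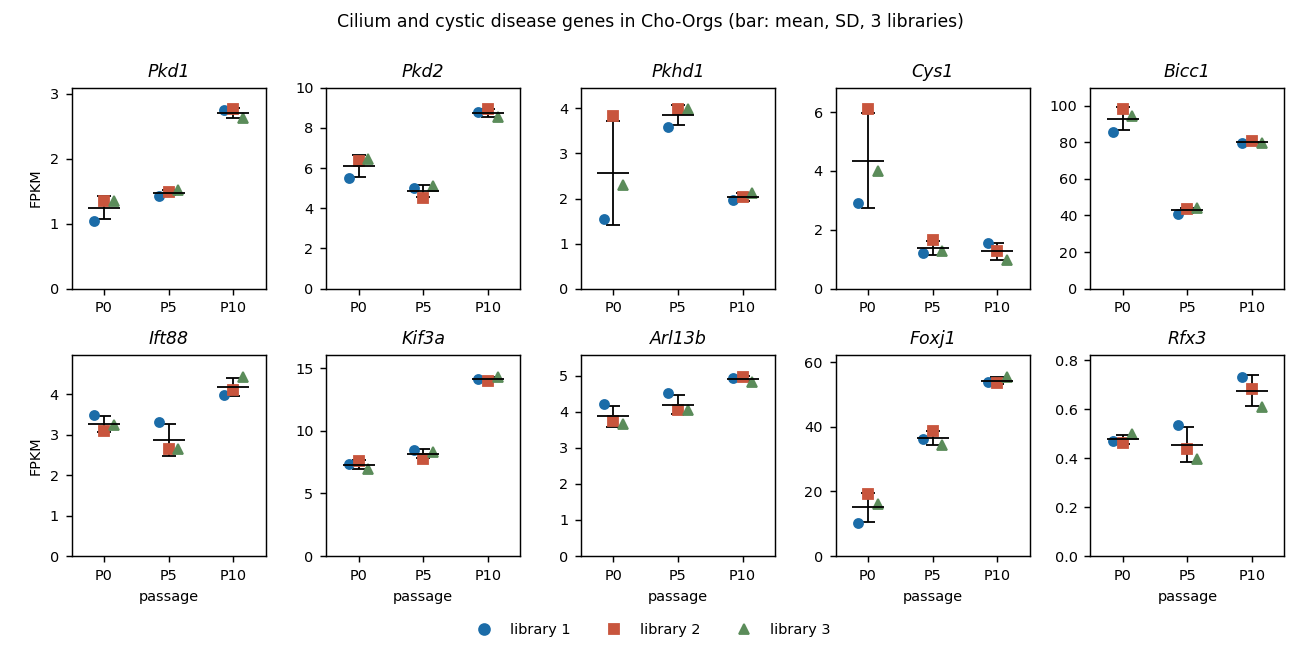
FPKM (vertical axes, from 0) of the 10 genes at P0, P5 and P10 (horizontal axes) in Cho-Orgs, 1 point per library, with the mean and SD of 3 libraries as bars. Foxj1 climbs over both steps, Bicc1 dips at P5, Cys1 is high at P0 alone, and Kif3a, Pkd1 and Pkd2 stand highest at P10.

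Pkd1 encodes polycystin-1, a large receptor-like protein of the ciliary membrane. It measured 1.04, 1.35 and 1.36 FPKM at P0, 1.43, 1.49 and 1.52 at P5, and 2.75, 2.77 and 2.62 at P10. Each library of P10 lay above all those of P0 and P5, and the mean at P10 was 2.17 times that at P0. On the log2(FPKM + 1) scale, which understates the change of low genes, the rise from P0 to P10 was 0.73 (SE 0.07, limma adjusted p = 1.1e-05). Of this, 0.58 (adjusted p = 9.7e-05) fell between P5 and P10, and the difference between P5 and P0 was 0.15 with an adjusted p of 0.11.

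Pkd2 encodes polycystin-2, the cation channel that pairs with polycystin-1. Its FPKM was 5.49, 6.37 and 6.45 at P0, 4.99, 4.52 and 5.10 at P5, and 8.79, 8.94 and 8.55 at P10. The 3 groups did not overlap, with P5 lowest and P10 highest. Pkd2 fell by 0.27 on the log2 scale (SE 0.07, adjusted p = 0.0068) from P0 to P5 and rose by 0.73 (SE 0.07, adjusted p = 1.4e-05) from P5 to P10, which left it 0.46 above P0 (adjusted p = 0.00017).

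Pkhd1 encodes fibrocystin, the product of the gene of autosomal recessive polycystic kidney disease. It measured 1.55, 3.82 and 2.31 FPKM at P0, 3.59, 3.99 and 3.98 at P5, and 1.96, 2.03 and 2.13 at P10. The P0 libraries spread widely, with library 1 under and library 2 above all P10 values, while P5 and P10 did not overlap. Pkhd1 fell by 0.67 (SE 0.18, adjusted p = 0.0095) from P5 to P10. The rise from P0 to P5, 0.50 (SE 0.18, adjusted p = 0.042), missed the threshold whenever 1 library other than P0 library 2 was left out, with adjusted p between 0.058 and 0.10, and was 0.28 without P0 library 1. It also missed it with median-ratio size factors (adjusted p = 0.078), without the filter (0.10) and in a fit of P0 and P5 alone (0.085). The net difference of P10 from P0, -0.18 (adjusted p = 0.40), became -0.39 (adjusted p = 0.023) without P0 library 1 and 0.07 (adjusted p = 0.59) without P0 library 2.

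Cys1 encodes cystin, a lipid-anchored protein of the cilium that is mutated in the congenital polycystic kidney mouse. Its FPKM was 2.92, 6.10 and 4.01 at P0, 1.20, 1.66 and 1.28 at P5, and 1.54, 1.28 and 0.974 at P10. All P0 libraries lay above all later ones, with library 2 highest, and P5 and P10 overlapped. Cys1 fell by 1.13 (SE 0.19, adjusted p = 0.00074) from P0 to P5 and by 1.20 (adjusted p = 0.00027) from P0 to P10. Between P10 and P5 the difference was -0.08 (SE 0.19, adjusted p = 0.75), and it changed sign, to 0.02 and 0.01, without P10 library 3 and without P5 library 2.

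Bicc1 encodes an RNA-binding protein whose loss gives cysts in kidney and bile ducts, and it had the highest level of the 10 genes at each passage. It measured 85.8, 98.2 and 94.6 FPKM at P0, 41.0, 43.6 and 43.8 at P5, and 79.7, 80.5 and 79.6 at P10. The P5 libraries stood alone at the bottom, and those of P10 came back to just under P0. Bicc1 fell by 1.10 (SE 0.06, adjusted p = 3.1e-07) from P0 to P5 and rose by 0.89 (SE 0.06, adjusted p = 1.3e-06) from P5 to P10. Its net fall of 0.21 from P0 to P10 (adjusted p = 0.0067) was small beside both steps.

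Ift88 encodes a core subunit of the IFT-B complex, without which cilia do not form. Its FPKM was 3.48, 3.10 and 3.23 at P0, 3.32, 2.66 and 2.64 at P5, and 3.99, 4.12 and 4.44 at P10. The libraries of P10 lay above all others, and P0 and P5 overlapped. Ift88 rose by 0.42 (SE 0.08, adjusted p = 0.0012) from P5 to P10 and by 0.28 (adjusted p = 0.010) from P0 to P10. The difference between P5 and P0, -0.15 (adjusted p = 0.15), passed the threshold without P5 library 1 (-0.23, adjusted p = 0.028) and with median-ratio size factors (-0.21, adjusted p = 0.039).

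Kif3a encodes a motor subunit of kinesin-2, which drives transport toward the ciliary tip. It measured 7.35, 7.63 and 6.95 FPKM at P0, 8.47, 7.79 and 8.31 at P5, and 14.1, 13.996 and 14.3 at P10. The P10 libraries stood far above the others with little spread, at 1.94 times the mean of P0. Kif3a rose by 0.72 (SE 0.05, adjusted p = 3.2e-06) from P5 to P10 and by 0.87 (adjusted p = 3.3e-07) from P0 to P10. The small rise from P0 to P5, 0.15 (SE 0.05, adjusted p = 0.039), missed the threshold with the replicate block (adjusted p = 0.070), with median-ratio size factors (0.07, adjusted p = 0.32), in a fit of P0 and P5 alone (adjusted p = 0.098), and without any 1 of P0 libraries 1 and 3, P5 libraries 1 and 3 and the P10 libraries (adjusted p between 0.052 and 0.12).

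Arl13b encodes a small GTPase of the ciliary membrane that is mutated in Joubert syndrome. Its FPKM was 4.22, 3.75 and 3.66 at P0, 4.51, 4.04 and 4.05 at P5, and 4.94, 4.98 and 4.84 at P10. The P10 libraries lay above all others. Arl13b rose by 0.28 (SE 0.06, adjusted p = 0.0028) from P0 to P10. The rise of 0.19 from P5 to P10 (SE 0.06, adjusted p = 0.028) missed the threshold without any 1 of the P10 libraries and of P5 libraries 2 and 3 (adjusted p between 0.056 and 0.088). Between P5 and P0 the difference was 0.09 (adjusted p = 0.24).

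Foxj1 encodes the forkhead factor that switches on the genes of motile cilia. Its FPKM was 10.1, 19.1 and 16.0 at P0, 36.1, 38.8 and 34.5 at P5, and 53.7, 53.6 and 55.5 at P10. The 3 passages did not overlap, and the mean at P10 was 3.60 times that at P0, the largest change among the 9 genes tested. Foxj1 rose by 1.26 (SE 0.17, adjusted p = 0.00020) from P0 to P5 and by 1.83 (SE 0.17, adjusted p = 7.0e-06) from P0 to P10. Its rise of 0.56 from P5 to P10 (SE 0.17, adjusted p = 0.017) missed the threshold without P10 library 3 (0.55, adjusted p = 0.051), without P5 library 3 (0.52, adjusted p = 0.055) and without the filter (adjusted p = 0.054).

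Rfx3 encodes an RFX factor that acts on genes of cilium assembly. It measured 0.471, 0.463 and 0.499 FPKM at P0, 0.535, 0.437 and 0.397 at P5, and 0.734, 0.685 and 0.608 at P10. Each P10 library lay above all others. Without the filter on low values, over 22670 genes, Rfx3 was 0.20 higher at P10 than at P5 (adjusted p = 0.0092) and 0.18 higher than at P0 (adjusted p = 0.012).

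Library 1 held the lowest P0 value for 6 of the 10 genes, library 2 for 2 and library 3 for 2. The genes lowest in library 1 were Pkd1, Pkd2, Pkhd1, Cys1, Bicc1 and Foxj1, and Mki67 was highest there, at 44.9 FPKM against 29.996 in library 2 and 36.97 in library 3. The part of Mki67 in these differences was not tested.

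**Figure D2:**
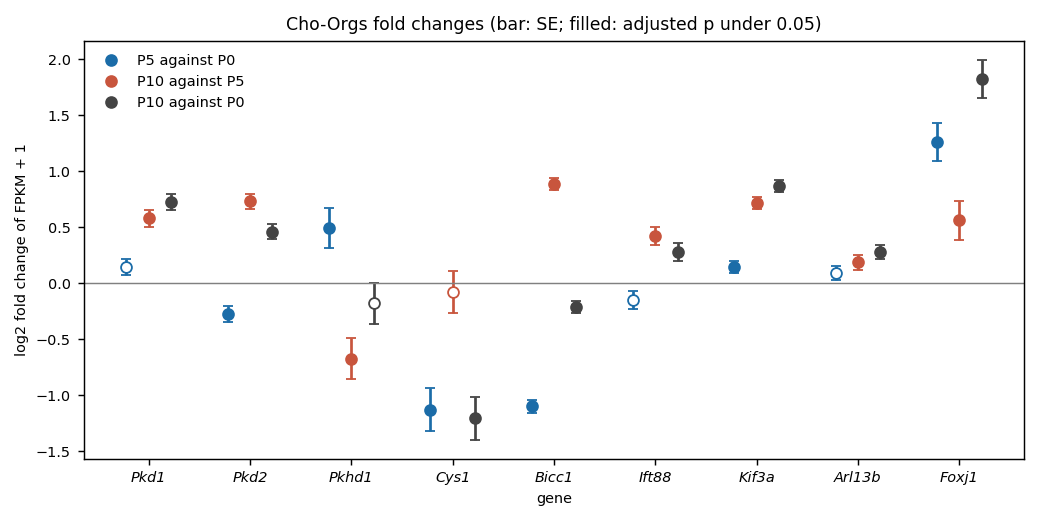
Log2 fold change of FPKM + 1 (vertical axis) of the 9 genes tested in Cho-Orgs, with SE as bars. Points are filled where the adjusted p is under 0.05. Foxj1 has the largest net rise (1.83) and Cys1 the largest net fall (-1.20), while Bicc1 moves down by 1.10 and back up by 0.89.

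Other genes of the cilium and of cystic disease were described by 13 lists with 153 gene symbols besides the members, of which 116 were tested. The lists also hold RFX genes for which a part in cilia is not established. They further hold genes of the endoplasmic reticulum, such as Sec63 and Prkcsh, and genes that also act in cell division, such as Plk1, Aurka and Plk4. The shares over all lists are therefore not those of cilium genes alone. Between P5 and P0, 27 were higher and 29 lower, or 23.3% and 25% of those tested, against 34% and 22.6% of all genes tested. From P5 to P10, 51 were higher and 20 lower, or 44.0% and 17.2%, against 31% and 30.5%. From P0 to P10, 55 were higher and 23 lower, or 47.4% and 19.8%, against 41% and 31.3%, with a median log2 fold change of 0.18 against 0.07 over all genes tested. The same shares of all genes tested apply to the counts of each single list below.

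The IFT-B complex, to which Ift88 belongs, carries cargo into the cilium. Of its 16 other genes tested, 5 rose and 3 fell from P0 to P5, 13 rose and Ift52 fell from P5 to P10, with a median of 0.37 against 0.01 for all genes tested, and 12 rose and 2 (Ift27 and Ift52) fell from P0 to P10. Ttc26 rose from 1.80 ± 0.0381 FPKM (SD, n = 3) at P0 to 4.17 ± 0.192 at P10, by 0.88 on the log2 scale (adjusted p = 3.6e-06), and Ift46 by 0.79, Ift20 by 0.72 and Ift172 by 0.67. Ift20 had the highest level of the list, at 33.9 ± 1.95 FPKM at P10. Among 6 genes of IFT-A, which serves the way back, Ift43 (0.60) and Ift122 (0.40) rose and Ttc21b fell by 0.32 from P0 to P10.

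Of 8 tested genes of the ciliary motors, 3 rose and 1 fell from P0 to P10, against 41% higher and 31.3% lower among all genes tested. Of 5 subunits of dynein-2, the motor toward the cell body, Wdr60 (0.76), Wdr34 (0.68) and Dync2h1 (0.29) rose, while Dync2li1 (0.07, adjusted p = 0.42) and Tctex1d2 (0.17, adjusted p = 0.14) did not pass the test. From P5 to P10 Dync2h1 fell by 0.19 (adjusted p = 0.028). Kif3c, another kinesin-2 subunit, fell by 0.28 (adjusted p = 0.032). Dync2li1 was the highest of the list, at 19.4 ± 0.991 FPKM at P10 and 18.5 ± 1.98 at P0. The BBSome, the coat that moves membrane proteins in and out of the cilium, had 9 tested genes, of which 5 rose, Bbs9 (0.38), Bbs2 (0.37), Bbs1 (0.34), Bbs4 (0.28) and Bbs7 (0.28), and Ttc8 fell by 0.22. Bbip1, the highest, stood at 7.90 ± 0.571 FPKM at P0 and 8.17 ± 0.308 at P10.

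The transition zone gates the base of the cilium, and many of its genes are mutated in nephronophthisis and Joubert syndrome. Of 22 tested with the inversin compartment, 11 rose and 3 fell from P0 to P10, against 41% higher and 31.3% lower among all genes tested. Nek8 rose from 3.66 ± 0.369 to 8.05 ± 0.252 FPKM (0.96, adjusted p = 1.3e-06), with nearly all of the rise after P5, and Ahi1 (0.90), Tctn1 (0.82) and Tmem231 (0.80) rose as well, while Cc2d2a fell by 0.80 (adjusted p = 4.9e-06) and Tmem237 by 0.66. Tctn2 was the highest, at 9.67 ± 1.54 and 9.71 ± 0.252 FPKM. Of 7 tested genes that load lipidated cargo or shape the ciliary membrane with Arl13b, Inpp5e (0.39) and Unc119b (0.20) rose, Pde6d fell by 0.65 and Rp2 by 0.29, and Arl3, the highest, stood at 39.2 ± 1.88 FPKM at P0 and 42.3 ± 1.03 at P10.

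The lists of the basal body and of cilium disassembly hold proteins that also act in cell division. From P0 to P10, 41% of all genes tested were called higher and 31.3% lower. Of 14 tested genes of the basal body, 4 rose (Ofd1, Fbf1, Sclt1 and Cep164, by 0.50, 0.39, 0.39 and 0.34) and 4 fell from P0 to P10. Those that fell were the centriole duplication genes Plk4, Stil, Sass6 and Cenpj, by 1.69, 1.63, 1.10 and 0.50, and Odf2, the highest, stood at 11.4 ± 0.959 and 12.02 ± 0.357 FPKM. Of 7 tested genes of cilium disassembly, 2 rose (Ccp110 by 0.56, Kif2a by 0.33) and 5 fell. The mitotic kinases Plk1, Aurka and Nek2 fell by 3.85, 3.29 and 2.98, the Aurka activator Nedd9 by 0.75, to 13.9 ± 0.413 FPKM, and Hdac6 by 0.21. All 10 tested proliferation genes fell over the same passages, and their part in these falls was not tested.

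Of 12 genes of polycystic and cystic disease besides the members, 6 rose and Lrp5 fell, by 0.27, from P0 to P10. Among all genes tested, 41% were called higher and 31.3% lower. Glis2, a nephronophthisis gene, rose from 4.29 ± 0.576 to 11.8 ± 0.139 FPKM (1.28, adjusted p = 2.7e-07) and Glis3 by 0.60, after a fall of 0.41 from P0 to P5. Sec61b, Sec63 and Prkcsh act in the endoplasmic reticulum, and loss of the latter pair gives isolated polycystic liver disease. Sec61b rose by 0.40, to 114 ± 11.6 FPKM, and Sec63 by 0.38, to 38.5 ± 0.235 FPKM, and Prkcsh, the highest, stood at 122 ± 2.72 FPKM at P0 and 131 ± 0.148 at P10 (0.10, adjusted p = 0.057).

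Of 3 tested ciliary sensors and cyclases, Adcy6 rose by 0.44, to 18.1 ± 0.320 FPKM, while the cation channel gene Trpv4 fell by 0.86 and the somatostatin receptor gene Sstr2 by 0.60 from P0 to P10. The bile acid receptor gene Gpbar1 was listed at 0 in all 9 libraries. Of 5 tested genes of ciliary Hedgehog signalling, Evc fell by 0.73, its partner Evc2 rose by 0.55 and Sufu by 0.18, and Smo, the highest, stood at 13.3 ± 0.377 and 13.0 ± 0.0792 FPKM.

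The list named cilium transcription holds RFX genes by name, and a part in cilia is not established for each of them. Of its 5 tested genes, Rfx1 (0.72), Rfx2 (0.67), Rfx7 (0.54) and Rfx5 (0.33) rose from P0 to P10, and Rfx7 was the highest, at 10.5 ± 0.201 FPKM. The motile cilium list, which holds genes that Foxj1 is known for, was mostly at low levels. Of 18 genes, 2 reached 1 FPKM in all libraries at P10, Rsph1 at 6.07 ± 0.764 FPKM and Cfap43 at 3.43 ± 0.145. Cfap43 rose from 0.587 ± 0.112 FPKM at P0 to 5.46 ± 0.348 at P5 (2.03, adjusted p = 3.5e-08) and fell by 0.54 from P5 to P10, so that it did not follow Foxj1 over the second step. The outer dynein arm gene Dnah5 stood at 0.00336 ± 0.00170 FPKM at P10, and Hydin at 0.00276 ± 0.00253.

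**Figure D3:**
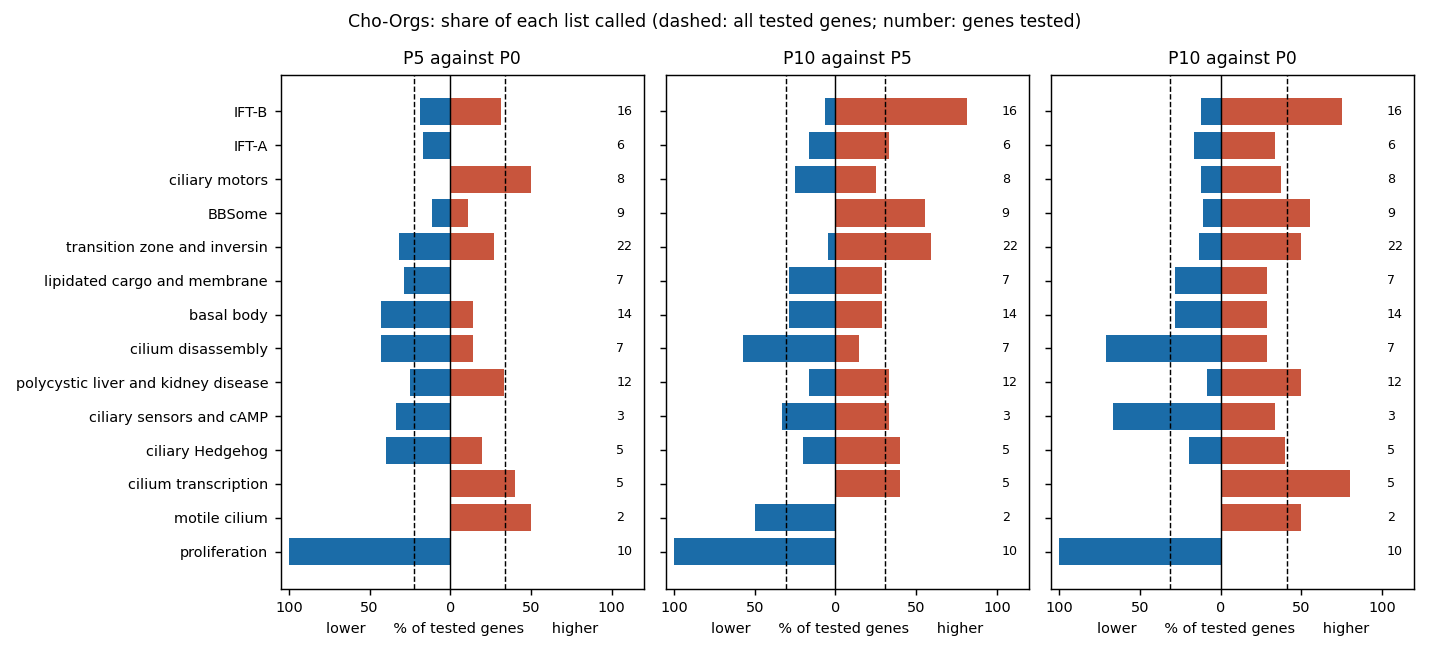
Percentage of the tested genes of each cilium or cystic disease list, and of the proliferation list, called higher (right, red) or lower (left, blue) in the 3 comparisons of Cho-Orgs, with the number tested beside each row and dashed lines at the percentage of all genes tested. IFT-B reaches furthest to the right from P5 to P10, with 13 of 16 genes, and proliferation lies wholly to the left. With median-ratio size factors, IFT-B goes from 5 higher and 3 lower to 4 and 5 between P5 and P0, BBSome from 1 and 1 to 0 and 3, and polycystic disease from 4 and 3 to 2 and 5.

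For each gene tested, the pair of genes whose log2(FPKM + 1) correlated best with it over the 9 Cho-Orgs libraries was found among 11592 others, which is a description, since the libraries share passages. The likeness was closest for Foxj1, with Rassf5 (Pearson r = 0.998) and Emp1 (0.998), and for Kif3a, with Casp4 and Cryzl1 (0.998 for both). Pkd1 was most like Tm9sf2 and Il6st (0.995 for both), Pkd2 like Ankrd40 and B3galt6 (0.993 for both), Cys1 like Dennd2b (0.991) and Sh3bp4 (0.989), and Bicc1 like Scara3 (0.993) and Fgfr3 (0.986). Ift88 was most like Fahd1 (0.986) and Zfp37 (0.980), Arl13b like Ddx31 (0.986) and 1110065P20Rik (0.983), and Pkhd1 like Cldn6 (0.978) and Tmed4 (0.973). A correlation of at least 0.95 was shared by 686 genes with Kif3a, 466 with Pkd1 and 386 with Foxj1, but by 11 genes with Pkhd1 and 16 with Ift88. None of the nearest genes was a member.

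In the hepatocyte table, the 10 genes stood at the same levels in the libraries labelled Pri-Hep and in Hep-Orgs of each passage, as far as 3 libraries a group could tell. None was called by limma in any of the 3 comparisons: 0 of 10 between Hep-Orgs and Pri-Hep, against 0% of 10986 genes tested, 0 of 10 between P10 and P1, against 0%, and 0 of 10 between P10 and P5, against 0.0273%. Without adjustment, 966, 986 and 1266 genes had a p under 0.05 in these comparisons, 0, 0 and 1 of them members. The members' log2 fold changes lay between -0.03 and 0.03, between -0.08 and 0.04 and between -0.10 and 0.07. With voom on the recovered fragments, 12, 29 and 28 genes were called, none of them a member, and no member was called among Hep-Orgs when the Pri-Hep libraries were left out.

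The nearest to a difference was Kif3a. It measured 24.01, 24.8 and 24.3 FPKM in Hep-Orgs at P5 and 25.1, 26.5 and 25.4 at P10, and these passages did not overlap. The difference was 0.07 (SE 0.03, unadjusted p = 0.040, limma adjusted p = 0.41). Its level was 25.8, 25.5 and 23.9 FPKM in the Pri-Hep libraries and 24.9, 24.5 and 25.3 at P1, and both of these groups overlapped with P5 and with P10.

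Over the 12 libraries, Bicc1 was again the highest, between 86.5 and 91.7 FPKM with a median of 87.9. It was followed by Kif3a (23.9 to 26.5), Pkd2 (17.6 to 18.7), Pkhd1 (14.4 to 16.0) and Foxj1 (12.9 to 14.8). Pkd2 and Pkhd1 did not overlap, whereas Pkhd1 and Foxj1 did. Arl13b (6.44 to 7.26), Ift88 (5.88 to 7.18) and Cys1 (4.80 to 6.04) overlapped with their neighbours, and Rfx3 (2.56 to 3.07) stood above Pkd1 (1.98 to 2.43). The coefficient of variation over all 12 libraries was between 1.61% (Bicc1) and 6.92% (Pkd1), and the fragments behind a value were between 234 (Cys1) and 17893 (Bicc1). The other cilium lists held no call in the comparison of Hep-Orgs with Pri-Hep, P10 with P1 or P10 with P5.

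**Figure D4:**
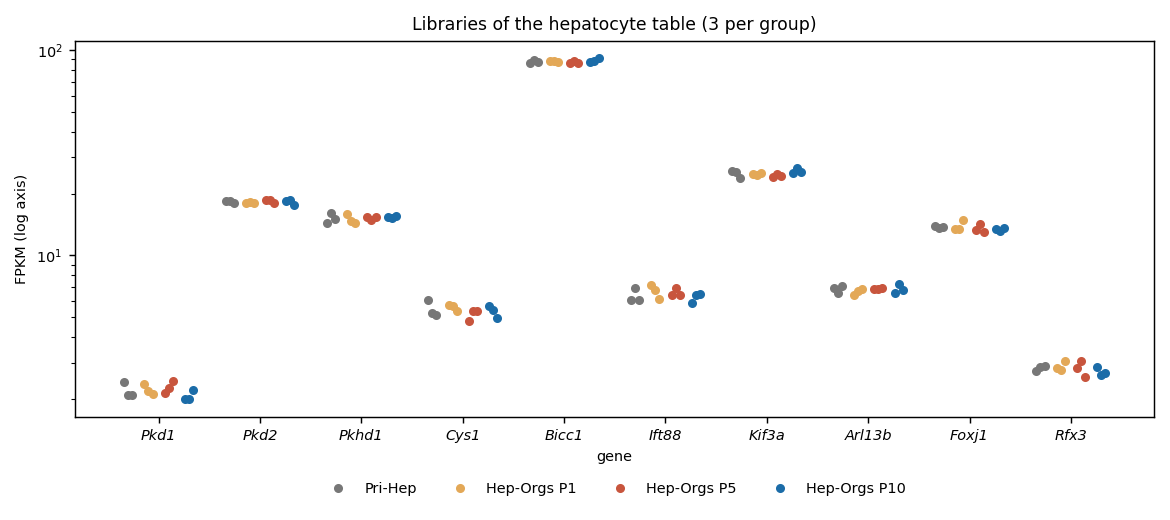
FPKM on a log axis of the 10 genes in the 12 libraries of the hepatocyte table, 1 point per library, in 4 groups of 3. The groups lie on top of each other for each gene, including the libraries labelled Pri-Hep, with Bicc1 near 88.1 and Pkd1 near 2.19 FPKM.

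The tables were normalized separately, and cell source and medium also differed between Hep-Orgs and Cho-Orgs. Their levels were therefore set side by side without a test. At P10, Pkhd1 averaged 15.4 FPKM in Hep-Orgs and 2.04 in Cho-Orgs, Pkd2 18.2 and 8.76, Kif3a 25.7 and 14.1, and Cys1 5.32 and 1.26. Bicc1 averaged 89.2 and 79.9, Ift88 6.24 and 4.18, and Arl13b 6.85 and 4.92. Rfx3 averaged 2.71 and 0.675. Foxj1 stood the other way round, at 13.4 FPKM in Hep-Orgs and 54.3 in Cho-Orgs, and Pkd1 at 2.06 and 2.71. At P5, Foxj1 kept this order, at 13.5 and 36.5 FPKM, but Pkd1 did not, at 2.27 and 1.48. As given above, cholangiocyte markers summed higher than hepatocyte markers in the libraries of the hepatocyte table. In both kinds of organoid Bicc1 was the most abundant of the 10 genes.

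The Smart-Seq libraries asked how P0 Hep-Orgs of different shape differ. Hep-Orgs of grape-like shape had far less Foxj1, Cys1 and Pkhd1, and less Bicc1 and Ift88, than the round-like ones, and more Pkd1, Kif3a and Arl13b. With 1 library per shape there was no test, and the intervals cover counting error only, from an estimated depth. Other markers differed between these libraries as well. The biliary markers Krt7, Krt19 and Epcam were each lowest in the grape-like library (4.05, 9.86 and 29.7 FPKM), higher in the intermediate one (29.9, 208 and 197) and highest in the round-like one (64.9, 272 and 275). The sum of 10 cholangiocyte markers, most of which was Spp1 in each library, was 930, 3674 and 3221 FPKM in that order. The sum of 8 macrophage markers, none of which was at 0, was highest in the grape-like library, at 9354 FPKM, with 2719 in the intermediate and 1469 in the round-like one. In the order grape-like, intermediate, round-like, the sum of 10 hepatocyte markers was 6012, 10339 and 1400 FPKM, that of 8 stellate and mesenchymal markers 1555, 402 and 345, and that of 8 endothelial markers 75.7, 31.7 and 13.2. The part of these markers, or of cells that carry them, in the differences was not tested.

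In the same order, Foxj1 stood at 0.172, 6.14 and 6.08 FPKM, from about 18, 650 and 643 fragments. The log2 ratio of the grape-like over the round-like library was -5.15 (95% interval -5.91 to -4.48), and the intermediate and round-like libraries differed by 0.01 (-0.15 to 0.17). Cys1 followed the same order, at 0.710, 2.88 and 2.37 FPKM, with a log2 ratio over the round-like library of -1.74 (-2.11 to -1.38). Pkhd1 was at 0.137, 0.531 and 0.729 FPKM, with a log2 ratio of -2.41 (-2.77 to -2.05). These ratios carry no pseudocount. On the log2(FPKM + 1) scale used for the other tables they were -2.60 for Foxj1, -0.98 for Cys1 and -0.60 for Pkhd1.

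Bicc1 measured 38.5, 58.8 and 74.98 FPKM, a log2 ratio of -0.96 (-0.99 to -0.93), and Ift88 3.18, 4.61 and 5.56 FPKM, a ratio of -0.81 (-0.95 to -0.66). Pkd1 had the opposite order, at 5.45, 2.72 and 2.45 FPKM, with a ratio of 1.16 (1.07 to 1.24), while Tsc2, which overlaps it, averaged 14.7 FPKM over these libraries. Kif3a stood at 11.8, 7.81 and 7.36 FPKM (0.68, 0.57 to 0.79) and Arl13b at 5.62, 3.98 and 4.60 FPKM (0.29, 0.16 to 0.42). Rfx3 was low throughout, at 0.577, 0.463 and 0.876 FPKM. Pkd2 stood at 7.44, 6.89 and 7.64 FPKM, and the interval of its log2 ratio over the round-like library, -0.04 (-0.11 to 0.03), held 0, with a sign that turned under median-ratio size factors (0.04). Over 12595 genes with at least 1 FPKM in any of the libraries, the grape-like library had a median log2 ratio of -0.13 over the round-like one, with a pseudocount of 1.

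**Figure D5:**
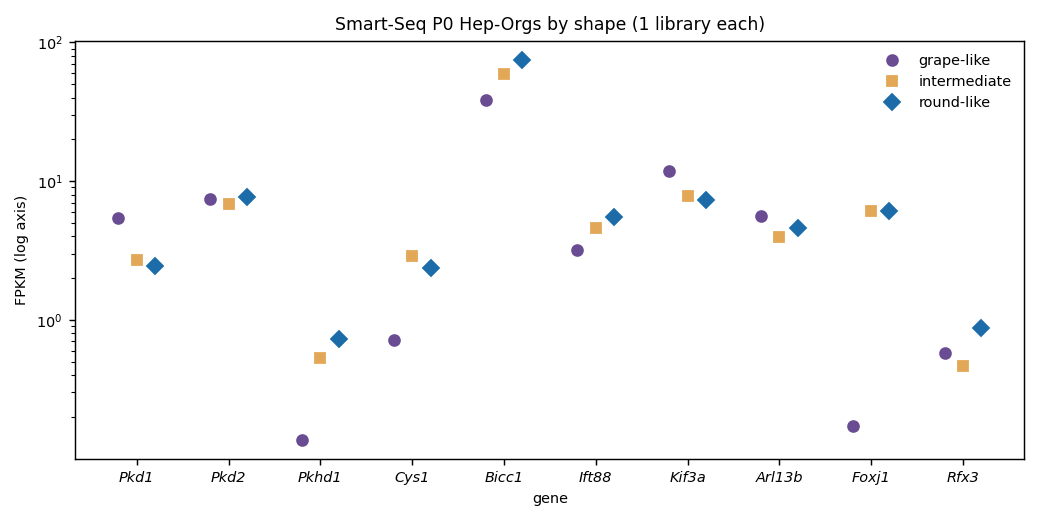
FPKM on a log axis of the 10 genes by shape in the Smart-Seq libraries (circle, grape-like; square, intermediate; diamond, round-like), 1 library each, without error bars. Foxj1 is 0.172 FPKM in the grape-like library and about 6 in the others, and Pkd1 is the clearest gene with the opposite order.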

How the data were processed

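The FPKM tables were deposited by the authors in 3 separate files, for the hepatocyte, cholangiocyte and Smart-Seq experiments. The submitters' processing notes name featureCounts 2.0.3, edgeR 3.40.2 and mm10. The aligner is not given in the sources used here. In the hepatocyte table, FPKM multiplied by listed gene length gave whole fragments for all values, within 0.05. The other depths were estimated from the steps between low values and are approximate. The counts behind a value set its precision, and intervals cover counting error only.

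Genes with at least 1 FPKM in at least 3 libraries were compared as log2(FPKM + 1) with limma 3.58.1 in R 4.3.3 (eBayes with trend, two-sided, all groups of a table together, Benjamini-Hochberg over all genes tested, threshold 0.05). Python 3.11.15 was used for the rest. The fits were tested on simulated data, with settings and outcome that are not reported here. The members and lists were chosen with earlier results of these data known. Named besides the members were, in each list, up to 4 called genes with the largest change from P0 to P10, the gene with the highest FPKM, 2 nearest genes per member and 5 markers. Others were named after their values were seen: Ift27, Ift52, Tctex1d2, Cc2d2a, Tmem237, Cftr, Spp1, Sox9, Tspan8, Slc4a2, Reln, Cd68, Lyz2, Tek, Cps1, Cyp3a11, Cyp2e1, Bbs7, Ttc8, Ofd1, Fbf1, Sclt1, Cep164, Ccp110, Kif2a, Hdac6, Lrp5, Gpbar1, Dnah5 and Hydin. Among those that fell in the transition zone list, 1 gene is not reported here.

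The replicate numbers mark mice in a legend of the study and were not used as pairs. Libraries of the same number deviated from their group means with a median correlation of -0.0063 (9 pairs, cholangiocyte table) and -0.0016 (18 pairs, hepatocyte table). Of the names in the lists, 4 matched no row in 1 or more tables: Ift25 and Tctn2 in the hepatocyte table, and Gmnc and Sntn in the others. In the hepatocyte table, Ift25 was covered under its other symbol, Hspb11.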

Additional observations from a re-analysis of the deposited data

How the results depend on the processing

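The members' counts called stayed within 4 to 6 (P5 against P0), 6 to 9 (P10 against P5) and 8 to 9 (P10 against P0) over 16 alternatives in Cho-Orgs, and at 0 over all alternatives in the hepatocyte table. Of their single fold changes under an alternative, 397 kept direction and side of the threshold, 29 lost the threshold, 3 gained it and 3 changed sign, none of them a called change: with 1 library left out, Pkhd1 between P10 and P0 ranged from -0.395 to 0.0655 and Cys1 between P10 and P5 from -0.162 to 0.0183. The replicate block ended 1 member's call, Kif3a from P0 to P5 (adjusted p = 0.070), and no other. Among other named genes, none of them called, the sign from P0 to P10 turned for Smo after rescaling to TPM (0.00728), for Dync2li1 (-0.00681), Bbip1 (-0.0279), Tctn2 (-0.0605) and Odf2 (-0.000951) with median-ratio size factors, and for Tctn2 with 1 library left out (-0.0514 to 0.130). In the hepatocyte table, genes called between Hep-Orgs and Pri-Hep went from 0 to 1 without the filter and to 12 with voom. Between P10 and P1 they went from 0 to 29 with voom, to 0 to 2 with 1 library left out, and to 2 without the Pri-Hep group, a setting chosen after seeing the data. Between P10 and P5 they went from 3 to 0 without the filter, without trend and with the replicate block, to 28 with voom, to 8 without the Pri-Hep group, and to 0 to 6 with 1 library left out. In none of these was a member called. Depth limits Foxj1, Pkhd1 and Cys1 in the grape-like library, at 18 to 84 estimated fragments. Of the Smart-Seq ratios on the log2(FPKM + 1) scale, 64 moved by less than their counting error under an alternative and 26 by more.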
